A study of Rattus norvegicus with 8 samples.

Results

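The cervical mucins and goblet cell factors described here are 10 genes, read as rows of the deposited table of 29884 gene symbols. They were chosen by name, with earlier results of these data known. They are the gel-forming mucins Muc5ac and Muc5b, the membrane mucins Muc1, Muc4, Muc16 and Muc20, the transcription factor Spdef, the mucin folding factor Agr2, and the secreted goblet cell proteins Clca1 and Tff3. All 10 had a row, and 9 held enough reads to be tested. The study sequenced RNA of the cervix from pregnant wild-type (WT) Sprague-Dawley rats. An intraperitoneal injection was given on gestational day 17, either 100 µg/kg lipopolysaccharide (LPS), the major surface glycolipid of Gram-negative bacteria, or the same volume of phosphate-buffered saline (PBS). Tissue was taken 12 hours later, and each group held 4 libraries, which the design text calls biological replicates. The sources used here do not say whether animals were pooled, how old they were or which part of the cervix was taken.

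Mucus is a gel of very large glycoproteins, the gel-forming mucins, which mucous cells pack into granules and secrete. In the cervix this gel forms the plug that separates the vagina from the uterus during pregnancy, and MUC5B is its best known mucin in humans. Membrane mucins stay anchored at the cell surface, where they make up much of the glycocalyx. In the goblet cells of the mouse intestine and airway, Spdef drives the secretory programme and Agr2 is needed in the endoplasmic reticulum for mucins to be made, while Clca1, a secreted protease that acts on the mucin network, and the trefoil peptide Tff3 are released with the mucus.

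After LPS the mucus genes did not move as 1 block. The most abundant of them in reads, Muc5b, differed by less than the spread between libraries, while Muc5ac was 10.8-fold higher, Agr2 was 2.78-fold higher and Clca1 was 3.25-fold lower. Of the 9 genes tested, 2 were higher, 1 was lower and 6 did not pass the test. Across all 16117 genes tested, 9.49% were called higher and 7.45% lower, 16.9% in all, and calls are at an adjusted p under 0.05 in edgeR's quasi-likelihood test. With 9 genes, 3 calls is too few for the share to be read against that background. The gene lists used below were also chosen with earlier results of these data known. Their shares therefore only describe the lists, and the background shares beside them are no test. The median log2 fold change of the 9 was 0.03, and that of all genes tested was 0.01. Levels are counts per 1e+06 (CPM) with library sizes adjusted by TMM (edgeR's trimmed mean of M values), so they are comparable between libraries but not between genes, whose transcripts differ in length. In pieces of whole tissue, fewer cells of a type and less RNA per cell cannot be told apart.

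The promoters of Clca1 and Agr2 are shown because these genes moved in opposite directions. Each is the RefSeq stretch from 250 bases before to 50 bases after the gene start in the build GRCr8, which differs from the build mRatBN7.2 named in the submitters' processing notes. Capitals mark a match to the forkhead (FOX) motif TGTTTAC on either strand in Clca1 and to the STAT motif TTCNNNGAA in Agr2.
Clca1, chr2:236624665-236624964, minus strand: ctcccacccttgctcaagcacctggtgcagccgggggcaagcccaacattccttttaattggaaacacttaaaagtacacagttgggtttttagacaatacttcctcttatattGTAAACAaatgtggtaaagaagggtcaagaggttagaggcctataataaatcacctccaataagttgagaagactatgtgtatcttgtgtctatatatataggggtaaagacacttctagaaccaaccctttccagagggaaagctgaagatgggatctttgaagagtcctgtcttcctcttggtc
Agr2, chr6:58435658-58435957, plus strand: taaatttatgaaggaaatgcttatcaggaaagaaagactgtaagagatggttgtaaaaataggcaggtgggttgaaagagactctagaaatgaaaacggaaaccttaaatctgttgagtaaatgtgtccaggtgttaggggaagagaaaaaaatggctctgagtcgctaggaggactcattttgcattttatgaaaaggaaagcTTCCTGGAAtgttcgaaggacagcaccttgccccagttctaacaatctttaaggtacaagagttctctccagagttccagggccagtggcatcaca
The Clca1 window held 1 FOX match, on the strand opposite to the gene, 136 to 130 bases before the start, and 3.78% of 33469 rat promoters of that length held at least 1. Promoter entries were matched by symbol for 7 of the 10 genes (Muc1, Muc4, Muc20, Spdef, Agr2, Clca1 and Tff3). Besides Clca1, the other 6 windows held no FOX match. The letters TATAAA stood in those of Muc1 and Tff3 and in 14.2% of all promoters. The STAT motif TTCNNNGAA stood in 3 of the 7 windows and in 8.87% of all promoters: in Agr2 46 to 38 bases before the start, in Muc4 17 to 9 and in Tff3 70 to 62. The form with a longer spacer that STAT6 prefers, TTCNNNNGAA, an NF-kB motif and the AP-1 motif (TGACTCA or TGAGTCA) were found in none of the 7, and in 7.28%, 7.51% and 4.63% of all promoters. GGAT, the core that Spdef binds, stood in 5 of the 7 windows and in 81.2% of all promoters. The motifs were searched on both strands, and the matches of different motifs did not overlap in the Clca1 and Agr2 windows. A match is a run of letters, and its absence says nothing of the factor.

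The totals of the 8 libraries lay between 33191039 and 40634384 counts, where 3 counts corresponded to 0.0733 to 0.0899 TMM-scaled CPM. PBS replicate 1 and LPS replicate 2 stood apart, at 29.7 and 27.8 on principal component 2 of the 500 most variable genes (16.3% of their variance), where the other 6 lay between -13.5 and -1.67, so the fold changes were also computed without both. No 2 libraries of a group agreed within sampling noise (chi-square of at least 54.1 for each degree of freedom). Columnar epithelium was well represented, with all 10 of its markers tested (Krt8 at 1186 ± 196 CPM in PBS, mean ± SD, n = 4). Of 9 markers of intestinal epithelium, where Clca1, Tff3 and Agr2 are also made, Cdx2 and Fabp1 had 0 counts in every library, 5 in all, these included, fell below the filter on low counts, and the summed level of the 9 was 7.34 to 29.0 CPM over the 8 libraries.

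Muc5b took more reads than almost any other symbol. It ranked first by reads in 5 of the libraries and next after the mitochondrial COX1 in the other 3, and held 1.28% to 2.37% of all counts in PBS and 1.81% to 2.01% in LPS. In PBS its level was 13090, 17530, 23270 and 19740 CPM in replicates 1 to 4, and in LPS 18050, 18590, 18900 and 19480 CPM. The LPS libraries sat close together inside the wider range of the PBS libraries, of which replicate 1 was the lowest and replicate 3 the highest. The log2 fold change was 0.03 (SE 0.18, adjusted p = 0.934), and its 95% interval, -0.37 to 0.43, corresponds to between 0.773 and 1.34 times the PBS level.

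Muc5ac, the gel-forming mucin of the airway and stomach surface, lies next to Muc5b in the genome and rose. Its level was 4.16, 3.44, 8.18 and 16.6 CPM in PBS replicates 1 to 4, against 41.6, 165, 91.8 and 49.7 CPM in LPS. The groups did not overlap, but they were spread widely: LPS replicate 2 held about 4 times as much as LPS replicate 1, and PBS replicate 4 stood above the other PBS libraries. The log2 fold change was 3.43 (SE 0.63, adjusted p = 0.00872), a 10.8-fold rise with a 95% interval of 3.995 to 29.2. It was 4.04 without PBS replicate 4 (adjusted p = 0.00741) and 2.70 when PBS replicate 1 and LPS replicate 2 were both left out (adjusted p = 0.03). Reads of Muc5ac nevertheless stayed a small part of the reads of both gel-forming mucins, 0.0426 ± 0.0284% in PBS and 0.462 ± 0.301% in LPS (n = 4 per group). The highest share was 0.880% in LPS replicate 2 (95% Clopper-Pearson interval 0.858 to 0.901%, for counting error only). The mucins Muc5ac and Muc5b have similar end domains, and the sources used here do not say how reads that fit both were counted.

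**Figure D1:**
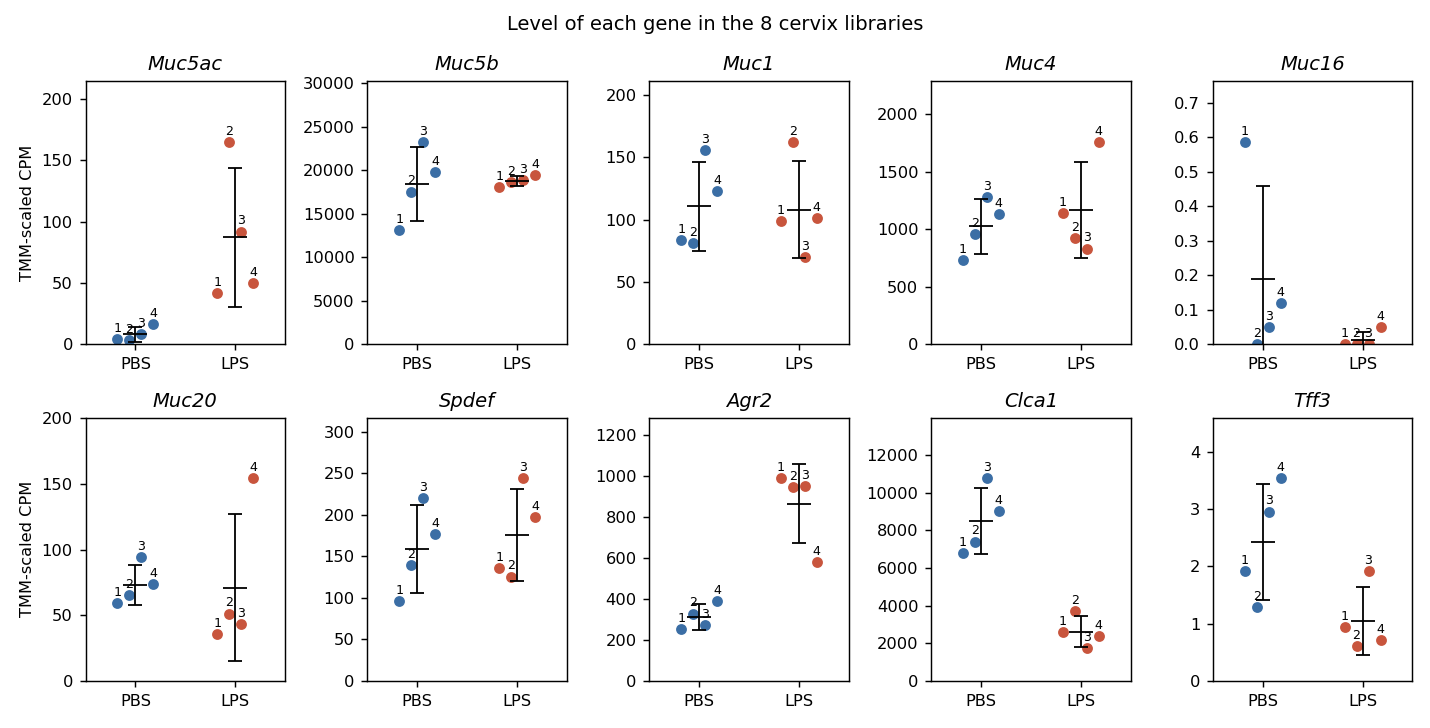
TMM-scaled CPM (vertical axes, each from 0 and with its own scale) of the 10 genes in the 4 PBS (blue) and 4 LPS (orange) libraries; points are libraries, numbered by replicate, and bars are means with SD, which are not drawn below 0. Muc5ac and Agr2 in LPS lie above all PBS libraries and Clca1 below them, while the LPS libraries of Muc5b, 18050 to 19480 CPM, lie within the PBS range.

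Of the membrane mucins, 0 of the 3 tested with all libraries passed in edgeR (0 at an unadjusted p under 0.05, 0 with DESeq2 and 0 with limma-voom), and 1 was too low to test. Muc1, which spans the apical membrane of most glandular epithelia, stood at 83.3, 81.1, 156 and 123 CPM in PBS replicates 1 to 4 and at 98.7, 163, 69.7 and 102 CPM in LPS. The groups overlapped fully, and LPS replicate 3 was the lowest of all 8 libraries. Its log2 fold change was -0.04 (95% interval -0.70 to 0.63, adjusted p = 0.949).

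Muc4, a large membrane mucin known in the rat as the sialomucin complex, held 731, 956, 1279 and 1133 CPM in PBS and 1137, 924, 832 and 1760 CPM in LPS. Muc20, a smaller membrane mucin encoded beside it, held 59.4, 65.4, 94.0 and 73.5 CPM in PBS and 35.6, 51.3, 43.1 and 154 CPM in LPS. LPS replicate 4 held the most of both neighbours, and PBS replicate 3 came next. For Muc4 the log2 fold change was 0.18 (95% interval -0.41 to 0.78, adjusted p = 0.67). That of Muc20 was -0.04 (95% interval -1.05 to 0.97, adjusted p = 0.962), a value set by 1 library: the other 3 LPS libraries lay below all 4 of PBS, and without LPS replicate 4 it was -0.75 (adjusted p = 0.0352). LPS replicate 4 also held the highest summed level of 8 neutrophil markers, 1622 CPM, where the other LPS libraries held 388 to 875 CPM and the PBS libraries 34.9 to 57.9 CPM. Its part in the Muc20 and Muc4 values was not tested.

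Muc16, the very large mucin that carries the CA125 antigen in humans, was at the edge of detection. It had 23, 0, 2 and 4 counts in PBS replicates 1 to 4 and 0, 0, 0 and 2 counts in LPS. Most of its reads thus came from PBS replicate 1, and 3 of the LPS libraries lay below the limit that a count of 0 allows, 3 counts or 0.0741 to 0.0768 CPM in those libraries. Summed, there were 29 counts in PBS and 2 in LPS, a ratio of 15.1 with a counting interval (95%) of 3.81 to 130, and without PBS replicate 1 there were 6 against 2. No difference was detectable at this depth without that library.

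Spdef, the Ets-family transcription factor of mucous cells, did not pass. It stood at 96.1, 140, 221 and 177 CPM in PBS replicates 1 to 4 and at 136, 126, 244 and 197 CPM in LPS, and the groups overlapped. The log2 fold change was 0.15 (SE 0.29, 95% interval -0.50 to 0.80, adjusted p = 0.759). The interval allows between 0.705 and 1.75 times the PBS level. PBS replicate 1 was the lowest of the 8 libraries for Spdef, as for Muc5b, Muc4 and Agr2. Without it the log2 fold change of Spdef was -0.03 (adjusted p = 0.947).

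Agr2, a protein disulfide isomerase of the endoplasmic reticulum that assists mucin folding, rose. PBS replicates 1 to 4 held 251, 328, 274 and 390 CPM, and the LPS libraries 986, 944, 949 and 577 CPM. Every LPS library lay above every PBS library, with 3 of them close together and LPS replicate 4 clearly below. The log2 fold change was 1.48 (SE 0.20, adjusted p = 0.00282), which is 2.78-fold (95% interval 2.02 to 3.84). For Agr2 and Muc5ac all 4 LPS libraries lay above all 4 of PBS, as they did for 12.9% of all genes tested.

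With all libraries, Clca1 was the only one of the 9 to fall in edgeR's test. It had 6807, 7398, 10760 and 9020 CPM in PBS replicates 1 to 4 and 2597, 3716, 1749 and 2383 CPM in LPS. The highest LPS library thus held less than the lowest PBS library, which was so for 10.5% of all genes tested. In reads, Clca1 took 0.8515 ± 0.195% of all counts in PBS and 0.261 ± 0.0783% in LPS (n = 4 per group). It ranked between 3 and 7 among all symbols in the PBS libraries and between 15 and 37 in LPS. The log2 fold change was -1.70 (SE 0.25, adjusted p = 0.00355), or 3.25-fold lower with a 95% interval of 2.20 to 4.81.

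Tff3, the trefoil peptide that goblet cells of the intestine release with mucins, was present at a few CPM. PBS replicates 1 to 4 held 1.92, 1.29, 2.96 and 3.54 CPM, from 52 to 120 counts, and the LPS libraries 0.938, 0.614, 1.92 and 0.709 CPM, from 24 to 76 counts. LPS replicate 3 overlapped the PBS range and the other 3 LPS libraries lay below it. The log2 fold change was -1.21 (SE 0.46, 95% interval -2.26 to -0.16, adjusted p = 0.108). It passed without LPS replicate 3 (-1.68, adjusted p = 0.041) and with DESeq2 (-1.22, adjusted p = 0.0453).

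**Figure D2:**
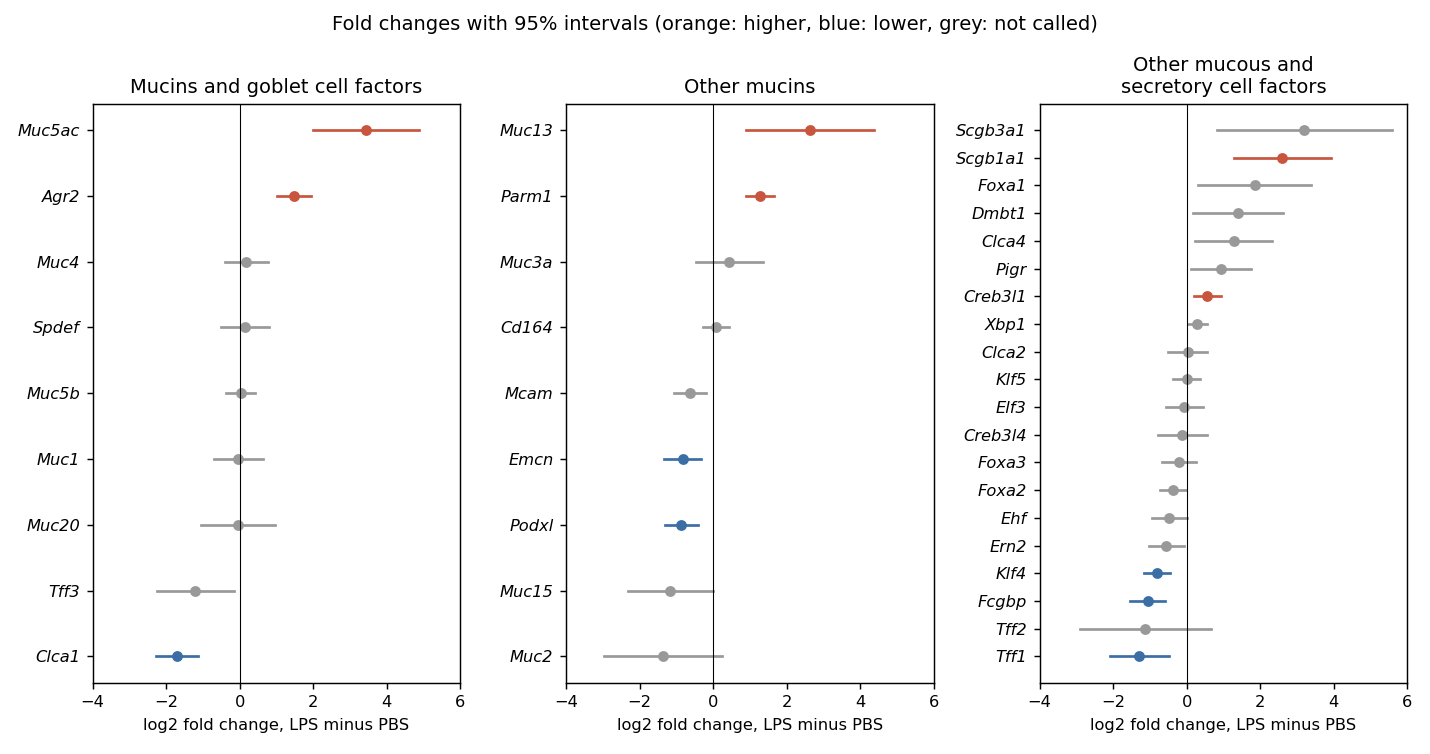
Log2 fold changes, LPS minus PBS (horizontal axes), from edgeR for the 9 tested genes, for 9 other mucins and for 20 other mucous and secretory cell factors; points are estimates, lines are 95% intervals not adjusted for multiple tests, and colours mark calls at an adjusted p under 0.05. Muc5ac, at 3.43, lies farthest to the right among the 9, and Clca1, at -1.70, farthest to the left.

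Levels were also set against those of Muc5b in the same library. For each 100 reads of Muc5b there were 46.5 ± 4.06 reads of Clca1 in PBS and 13.97 ± 4.54 in LPS (n = 4 per group), with ranges of 42.2 to 52.0 and 9.25 to 19.99. For Agr2 the same measure was 1.74 ± 0.375 in PBS and 4.63 ± 1.13 in LPS, with ranges of 1.176 to 1.97 and 2.96 to 5.46. These ratios were taken within a library and do not depend on its scaling. They compare 1 gene between groups and not the abundance of transcripts of different genes, and no test was made of them.

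The same ratio was taken for Fcgbp, a large secreted protein that is built into intestinal mucus in humans and mice, and was 24.2 ± 2.01 reads per 100 reads of Muc5b in PBS and 11.5 ± 1.78 in LPS (n = 4 each). By level, Fcgbp held 2889, 4284, 5464 and 5298 CPM in PBS replicates 1 to 4 and 2012, 2611, 2009 and 1956 CPM in LPS, with no overlap. It fell by 1.06 on the log2 scale (SE 0.21, adjusted p = 0.0114).

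**Figure D3:**
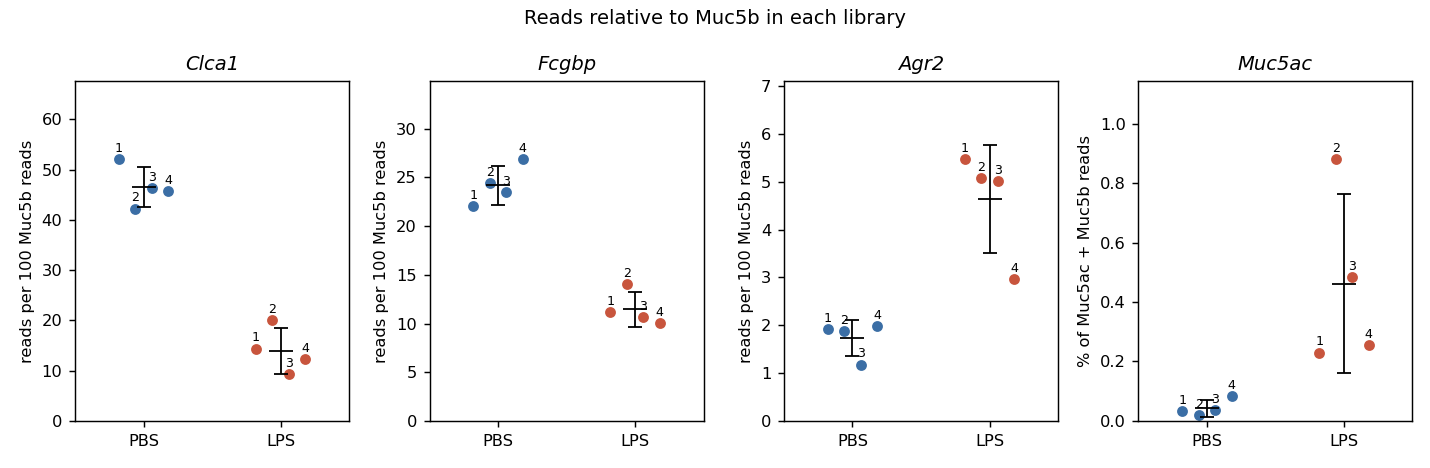
Reads of Clca1, Fcgbp and Agr2 per 100 reads of Muc5b, and reads of Muc5ac as a percentage of the reads of Muc5ac and Muc5b together (vertical axes from 0), in each PBS (blue) and LPS (orange) library; points are libraries numbered by replicate, and bars are means with SD. In all 4 panels the groups do not overlap, with Clca1 at 42.2 to 52.0 in PBS and 9.25 to 19.99 in LPS.

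Summed markers of epithelium lay lower in every LPS library than in every PBS library. The summed level of 10 columnar epithelium markers was 4034 to 5422 CPM in PBS and 3235 to 3854 CPM in LPS, and that of 15 squamous epithelium markers was 7685 to 13580 CPM in PBS and 5455 to 6612 CPM in LPS. Without 1 called gene each, the groups overlapped: the columnar sum without Krt7 was 3159 to 4290 CPM in PBS and 2798 to 3414 CPM in LPS, and the squamous sum without Krt13 was 6060 to 10040 CPM in PBS and 5391 to 6557 CPM in LPS. Of the 10 columnar markers 1 was called lower and 0 higher (median log2 fold change -0.38), and of 11 squamous markers tested 2 were lower and 0 higher (median -0.57). Over all genes tested 7.45% were lower and 9.49% higher. Krt7, a keratin of simple epithelia, fell by 1.18 on the log2 scale, from 927 ± 156 CPM in PBS to 411 ± 49.5 CPM in LPS (n = 4 each, adjusted p = 0.0018). Krt8, the highest of the columnar markers, had a value of -0.54 (adjusted p = 0.0681), and Epcam, chosen after its value was seen, one of -0.11 (adjusted p = 0.533). Among the squamous markers Krt13, a keratin of the upper layers, fell by 4.53 (adjusted p = 0.000846) and Sprr1a, of the cornified envelope, by 1.49 (adjusted p = 0.0241). The call of Sprr1a needed each of 4 libraries, PBS 2 and 4 and LPS 1 and 4. The squamous marker with the most reads, Krt5, had a value of -0.30 (adjusted p = 0.339). Krt14, Tp63 and Lypd3, chosen after their values were seen, had values of 0.12, 0.14 and 0.32 (adjusted p of 0.751, 0.674 and 0.455). They were the only squamous markers tested with values above 0. The rest, Krt15, Dsg3, Dsc3, Krt6a and Tgm1, had values of -0.57, -1.14, -0.71, -0.71 and -0.02 (adjusted p of 0.0523, 0.104, 0.365, 0.38 and 0.982).

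Divided by the summed counts of the columnar markers, the 3 called genes kept their direction. The difference in the mean log2 ratio, LPS minus PBS, was 3.91 for Muc5ac, 1.89 for Agr2 and -1.31 for Clca1, each with no overlap between groups. For Muc5b it was 0.48, for Muc4 0.57, for Spdef 0.59, for Muc1 0.38, for Muc20 0.14 and for Tff3 -0.82, and in these the groups overlapped. The squamous markers as denominator gave -1.07 for Clca1, where the groups overlapped, 2.13 for Agr2 and 4.16 for Muc5ac. Without Krt13 the squamous denominator gave -1.395 for Clca1, with no overlap, and without Krt7 the columnar one gave -1.445. With Epcam alone the values for Clca1, Agr2 and Muc5ac were -1.63, 1.57 and 3.59. Whether the level of epithelial markers takes part in the levels of the 10 genes was not tested beyond these ratios.

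Markers of other cell types changed as well. Of 7 neutrophil markers tested 6 were higher and 0 lower, of 6 macrophage markers 5 and 0, of 5 fibroblast markers 3 and 0, and of 5 smooth muscle markers 0 and 3. Over all genes tested 9.49% were higher and 7.45% lower. The calls of smooth muscle markers numbered 0 whenever PBS 2, PBS 3, LPS 1 or LPS 3 was left out. S100a9, a subunit of neutrophil calprotectin, rose by 5.004 on the log2 scale (adjusted p = 0.000568), with Cd177 at 4.80 and S100a8 at 5.20 (4.57 without LPS replicate 4). The macrophage markers Adgre1, Cd163 and Cd68 rose by 3.82, 2.18 and 0.97, and the fibroblast genes Dcn, Lum and Pdgfra by 1.47, 1.95 and 1.26, while Col1a1, the fibroblast gene with the most reads, had a value of 0.17 (adjusted p = 0.56). Myh11, Cnn1 and Tagln, of smooth muscle, fell by 1.20, 1.10 and 0.97. Of 4 ciliated cell markers tested 0 were called by edgeR (1 at an unadjusted p under 0.05), DESeq2 or limma-voom, and Tppp3, the one with the most reads, had a value of -0.29 (adjusted p = 0.332). Krt20 alone was called lower among the 4 tested intestinal markers (-2.09, adjusted p = 0.0014), of which Gpa33 had the most reads and a value of 0.02 (adjusted p = 0.986), or -0.65 without both PBS replicate 1 and LPS replicate 2 (adjusted p = 0.652). Mpo, the tested neutrophil marker that was not called, had a value of -0.18 (adjusted p = 0.915). The neutrophil elastase gene Elane averaged 0.0392 ± 0.044 CPM in PBS and 0.142 ± 0.138 CPM in LPS and was not tested. Its product releases and induces mucins in airway cells, but the RNA level does not measure that protein. What these cell types contribute to the values of the 10 genes was not tested.

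**Figure D4:**
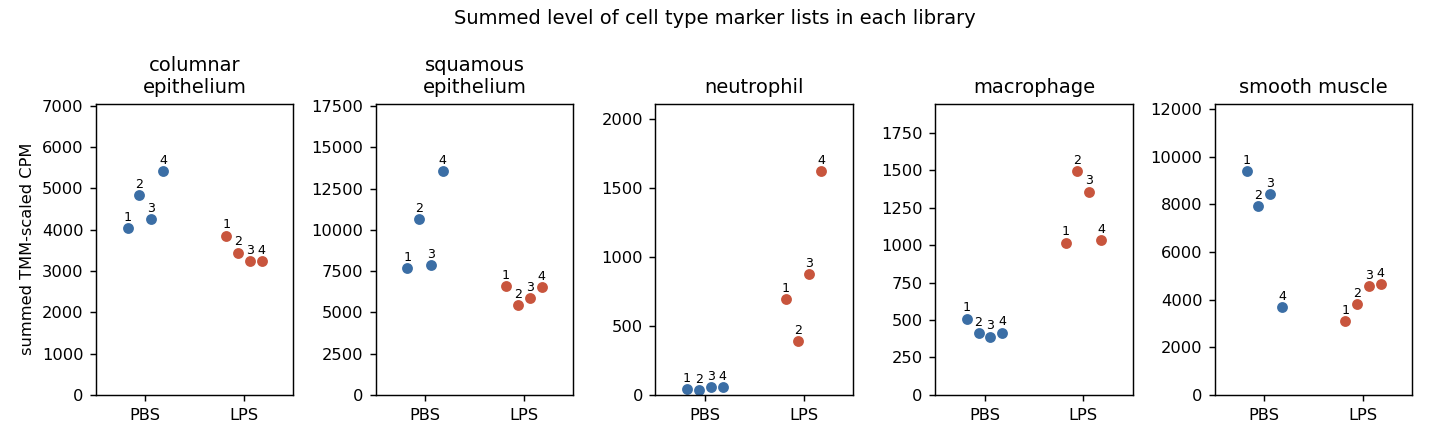
Summed TMM-scaled CPM (vertical axes from 0) of 5 lists of cell type markers in each PBS (blue) and LPS (orange) library; points are libraries numbered by replicate. The columnar sum is 4034 to 5422 CPM in PBS and 3235 to 3854 CPM in LPS, and the neutrophil sum is at most 57.9 CPM in PBS and at least 388 CPM in LPS.

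Several of the genes lie in clusters of related genes, and neighbours differed. On chromosome 1 the order is Muc6, Muc2, Muc5ac and Muc5b. Muc6 had 0 counts in every library, which allows up to 3 counts in each, and Muc2, the gel-forming mucin of the intestine, averaged 0.549 ± 0.236 CPM in PBS and 0.210 ± 0.225 CPM in LPS (log2 fold change -1.37, adjusted p = 0.216). Without LPS replicate 4 the value of Muc2 was -2.40 and passed (adjusted p = 0.0381). Muc2 had 12, 34, 17 and 21 counts in PBS replicates 1 to 4, and passed the filter on low counts through these libraries, where it is higher. On chromosome 2 the order is Clca4l, Clca4, Clca1 and Clca2. Clca4l, named after its values were seen, averaged 0.388 ± 0.346 CPM in PBS and 9.85 ± 7.84 CPM in LPS (n = 4 each). It rose by 4.63 on the log2 scale (adjusted p = 0.00883), by 5.38 without PBS replicate 3 or 3.99 without LPS replicate 4, which held 20.6 CPM. Among 17 alternative fits, Clca4l was called in 16, and its highest adjusted p was 0.0555. Clca4 had a value of 1.28 (adjusted p = 0.0895) and passed without LPS replicate 4, while that of Clca2 was 0.03 (adjusted p = 0.949). Clca1 averaged 8497 ± 1777 CPM in PBS and 2611 ± 820 CPM in LPS, and fell in a cluster that holds a relative called higher, Clca4l. That relative had 7, 17, 35 and 3 counts in PBS replicates 1 to 4. It passed the filter on low counts only through its LPS libraries, where it is high. Close relatives can share reads, and the part of this in the values was not tested.

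On chromosome 20 Tff3 is followed by the trefoil genes Tff2 and Tff1, whose products accompany mucins in the stomach. Tff1 averaged 16.5 ± 5.22 CPM in PBS and 6.74 ± 3.06 CPM in LPS (n = 4 each), and LPS replicate 1, at 10.9 CPM, overlapped the PBS range. It fell by 1.29 on the log2 scale (adjusted p = 0.0388). The call of Tff1 was kept in 2 of 8 fits that each left out 1 library, those without PBS replicate 2 and without LPS replicate 1. Tff2 had a value of -1.13 (adjusted p = 0.355). On chromosome 6 Agr2 follows its relative Agr3, which was too low to test, at 0.170 ± 0.0848 CPM in PBS and 0.347 ± 0.328 CPM in LPS.

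**Figure D5:**
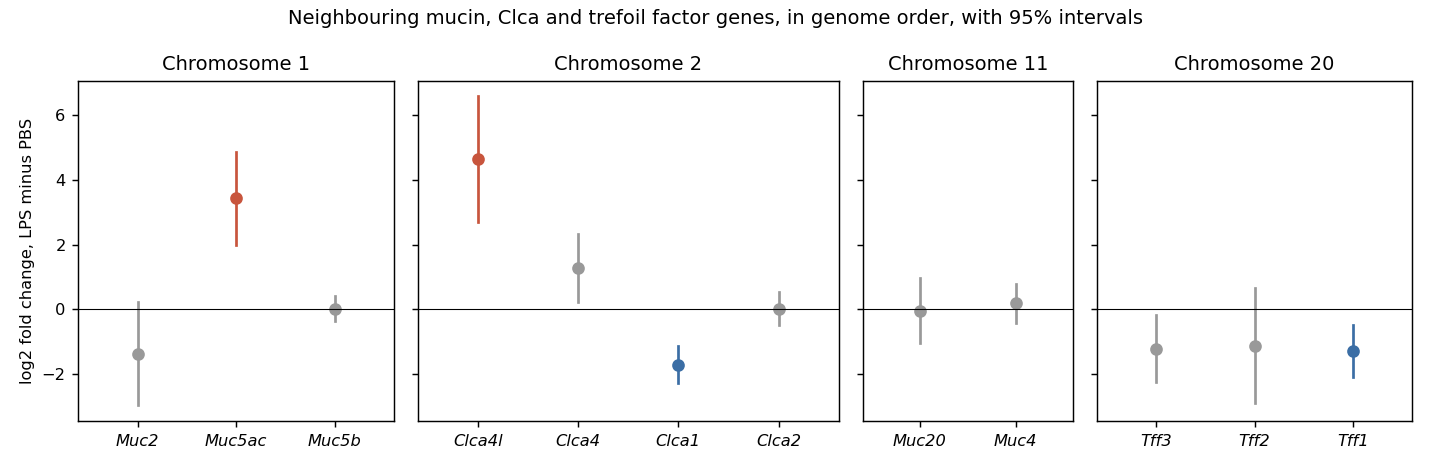
Log2 fold changes, LPS minus PBS (vertical axis), with 95% intervals not adjusted for multiple tests, for neighbouring genes in the order of the build GRCr8 (horizontal axis, not to scale); orange marks genes called higher, blue lower and grey not called. Muc5ac, at 3.43, stands beside Muc5b at 0.03, and Clca1, at -1.70, stands between Clca4 and Clca2.

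Among 9 other mucins and mucin-like genes tested, 2 were higher and 2 lower (median log2 fold change -0.62). That is 22.2% each way, where 9.49% of all genes tested were higher and 7.45% lower. Parm1, a mucin-like membrane protein, rose by 1.27 on the log2 scale (SE 0.17, adjusted p = 0.00234), from 52.7 ± 8.28 CPM in PBS to 127 ± 26.0 CPM in LPS (n = 4 each). Muc13, a membrane mucin of the intestine named after its value was seen, rose from 2.40 ± 1.65 to 15.0 ± 11.4 CPM (2.64, adjusted p = 0.0471), a call kept only without LPS replicate 2 or LPS replicate 4 among fits that left out 1 library. The value of Muc13 was 3.26 (adjusted p = 0.0543) when PBS 1 and LPS 2 were both left out. Podxl and Emcn, sialomucins of blood vessel lining, fell by 0.87 (adjusted p = 0.021) and 0.83 (adjusted p = 0.0375). The call of Podxl did not hold when PBS 2, LPS 1 or LPS 3 was dropped, nor that of Emcn when PBS 2 or any 1 of the LPS libraries was. Cd164, the member of the list with the most reads, had a value of 0.07 (adjusted p = 0.778).

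Of 20 other mucous and secretory cell factors tested, 2 were higher (10%) and 3 lower (15%), with a median of -0.03. The shares of all genes tested were 9.49% and 7.45%. Besides Fcgbp and Tff1, Klf4, a transcription factor of goblet cell differentiation in mouse colon, fell by 0.81 (SE 0.15, adjusted p = 0.00957), from 512 ± 109 CPM in PBS to 292 ± 21.5 CPM in LPS (n = 4 each). Those that rose were Scgb1a1, the club cell secretoglobin, and Creb3l1, a membrane-bound transcription factor of secretory cells, named after its value was seen (0.56, adjusted p = 0.0459). Scgb1a1 went from 0.105 ± 0.0411 to 0.650 ± 0.426 CPM (2.60, adjusted p = 0.0181) and was near the edge of detection in PBS. It had 2, 6, 4 and 4 counts in PBS replicates 1 to 4 and 12, 49, 25 and 17 counts in LPS. With so few counts in PBS, Scgb1a1 passed the filter on low counts only through its LPS libraries, where it is high. The call of Scgb1a1 was lost without PBS replicate 3. Its value was 1.84 (adjusted p = 0.0626) without both PBS replicate 1 and LPS replicate 2. Among fits that left out 1 library, the call of Creb3l1 held only without PBS replicate 1 or LPS replicate 1. The forkhead factors Foxa2 and Foxa3, which act in goblet cells, had values of -0.37 (adjusted p = 0.148) and -0.20 (adjusted p = 0.541). Foxa1, also on the list, went the other way, at 1.85 (adjusted p = 0.0952). Its level was low, 0.379 ± 0.271 CPM in PBS and 1.36 ± 1.05 CPM in LPS. Xbp1, of the unfolded protein response in secretory cells, had a value of 0.30 (adjusted p = 0.117). The Foxa genes and Xbp1 were chosen after their values were seen. Atoh1, which sets the secretory lineage in the intestine, and the goblet cell gene Retnlb had 0 counts in every library.

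In the machinery of granule release, 2 of 19 genes were higher (10.5%) and 4 lower (21.1%), with a median of -0.03. The shares of all genes tested were 9.49% and 7.45%. The GTPases Rab27a and Rab27b, which bring secretory granules to the membrane, had log2 fold changes of -0.76 (adjusted p = 0.0102) and -0.55 (adjusted p = 0.00412), and both fell. Vamp2, a SNARE protein of vesicles, fell by 0.52 (adjusted p = 0.00239). Rab3d, of mature granules and the gene of this list with the most reads, fell by 0.52 (adjusted p = 0.0287), and among fits that left out 1 library passed only without PBS replicate 1 or LPS replicate 4. The genes that rose, named after their values were seen, were Vamp8, the granule SNARE of mucin release in airway goblet cells (0.34, adjusted p = 0.0104), and Marcks, which links granules to the cytoskeleton (0.80, adjusted p = 0.0188, lost without PBS replicate 2 or 3).

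Of 16 genes of mucin induction and shedding tested, 3 were higher (18.8%) and 1 lower (6.25%), with a median of 0.15. The shares of all genes tested were 9.49% and 7.45%. Mmp7, matrilysin, rose by 3.27 (SE 0.57, adjusted p = 0.00728), from 4.19 ± 2.35 CPM in PBS to 40.3 ± 23.5 CPM in LPS (n = 4 each). Adam17, the membrane protease that sheds Muc1 in human uterine cells, rose by 0.63 (adjusted p = 0.0129). Stat6, which carries the interleukin-4 and interleukin-13 signal that induces Clca1 and Muc5ac in the mouse airway, rose by 0.33 (adjusted p = 0.0229, lost without PBS replicate 2 or 3) and was named after its value was seen. Hes1, a target of Notch signals, fell by 0.70 (adjusted p = 0.0132). Mmp14, which had the most reads of the list, had a value of 0.42 (adjusted p = 0.136), and passed without LPS replicate 4 (0.55, adjusted p = 0.0295). Il4 had 0 counts in every library. Il13 had 4 counts in LPS replicate 3 and 0 in every other library, where a count of 0 allows up to 3 counts in each.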

How the data were processed

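RNA-seq libraries were prepared from TRIzol-extracted total RNA of the cervix using the VAHTS Universal V6 kit, per the labels. The deposited values are raw counts, 1 whole number for each symbol in each library. The build mRatBN7.2 and the tools HISAT2, HTSeq, fastp and R 3.2.0 stand in the submitters' processing notes, with no role stated. The sources used here give no strand setting or annotation. Columns were matched through the library names, in which LPS replicate 4 carries another number.

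The 10 genes and the gene lists were chosen with earlier results of these data known. Genes passing edgeR's filterByExpr (16117) were tested with edgeR 4.0.16 in R 4.3.3, using TMM scaling, robust quasi-likelihood F tests and Benjamini-Hochberg adjustment over all of them. The SE is the log2 fold change divided by the square root of F. P-values set the difference between groups against the spread between these libraries, and whether a library holds 1 animal or a pool is not stated. Of each list, the 3 called genes with the lowest adjusted p and the gene with the highest mean CPM are named; other genes were named after their values were seen. 4 of the other mucins and 1 ciliated cell marker had no row under their symbol or a synonym, and Trp63 was read as Tp63. For ratios to epithelial markers 0.5 was added to each gene's count. Alternatives were RLE and upper-quartile scaling, 2 other filters, limma-voom 3.58.1 plain and weighted, DESeq2 1.42.0, each library left out and the replicate number as a block. The fit without both PBS replicate 1 and LPS replicate 2, and the marker sums without Krt7 or Krt13, were chosen after seeing the data. Leaving Muc5b and Clca1 out of the library sizes is cancelled by TMM and is not counted as an alternative.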

Additional observations from a re-analysis of the deposited data

Results flagged for a closer look

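A library was looked at again where it lay far from the other 3 of its group, by Dixon's criterion at 4 samples (a gap of more than 0.829 of the range). Of 116 pairs of a named gene and a group, 10 met it. Chance flags about 1 in 20 where values are normally distributed, which does not hold for genes with mostly 0 counts. LPS replicate 4 stood apart for Muc20, at 154 CPM, with 35.6 to 51.3 CPM in the rest of its group, and for Agr2, at 577 CPM against 944 to 986 CPM. It was also the only LPS library with any Muc16 reads, at 0.0489 CPM. The rest of the group was at 0 there, so any read at all would have been flagged. LPS replicate 2 was high for Fcgbp, at 2611 CPM against 1956 to 2012 CPM, and for Col1a1, at 8314 CPM against 5035 to 5331 CPM. LPS replicate 3 was low for Krt7, at 337 CPM, and high for Cd163, at 278 CPM. PBS replicate 1 was low for Rab27b, at 30.6 CPM, and high for Cd163, at 53.1 CPM, and PBS replicate 3 was low for Col1a1, at 4394 CPM.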

How the results depend on the processing

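Muc5ac, Agr2 and Clca1 were called in the same direction in all 17 alternatives, with log2 fold changes of 2.70 to 4.04, 1.34 to 1.63 and -2.02 to -1.55. Muc5b, Muc1, Muc4 and Spdef were called in none of the 17. Of 153 fits of the 9 tested genes, 150 kept the direction of a called gene and the side of the threshold; the exceptions were Tff3 without LPS replicate 3 and with DESeq2, and Muc20 without LPS replicate 4. Of 814 fits of 48 other named genes, 93 lost a call, 5 gained one and 0 reversed a called direction.

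With 1 library left out, 904 to 1385 genes were higher and 563 (without PBS replicate 2) to 1199 lower, 752 without PBS replicate 3 and 750 without LPS replicate 3. Of the 9 genes, 2 were higher throughout and 1 to 2 lower. The other counts ran from 1 to 2 higher and 0 to 3 lower for other mucins, 1 to 4 higher for mucous and secretory factors, 1 to 2 higher for granule release, 1 to 2 lower for mucin induction and shedding, 1 to 2 lower for columnar, 1 to 3 lower for squamous and 0 to 5 lower for smooth muscle markers.

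DESeq2 called 2089 genes lower, 2 of the 9 lower, 7 mucous and secretory factors higher, and 3 columnar and 4 squamous markers lower. RLE scaling and a stricter filter (1 CPM or more in 4 or more libraries) each left 1 mucous and secretory factor higher, and the latter gave 2 columnar markers lower, as did limma-voom with quality weights. No filter, limma-voom and its weighted form each left 1 other mucin higher. Limma-voom also left 1 other mucin lower, and it and no filter 1 smooth muscle marker. Without both PBS replicate 1 and LPS replicate 2 there was 1 other mucin higher and 1 lower, 1 secretory factor higher, 2 induction and shedding genes lower and 0 smooth muscle markers lower. The ratio to Epcam alone was 0.16 for Muc5b and 1.57 for Agr2, and that to squamous markers 2.13 for Agr2. The cause of these shifts was not tested.

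The replicate numbers gave no clear sign of pairing. Deviations from the group means of same-numbered libraries correlated at -0.134, -0.181, -0.0867 and 0.208. Those of differently numbered libraries ran from -0.215 to 0.24. With so few libraries these values cannot settle whether the numbers pair them. With the number as a replicate block 1151 genes were higher and 845 lower, 1 squamous and 0 smooth muscle markers were lower, and the calls of the 9 genes were as without it. Depth limits Muc16, with 29 and 2 counts, and Tff3, with at most 120 counts in a library.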
